A study of Mus musculus with 2 samples.

Results

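Receptors for serotonin, acetylcholine, dopamine, noradrenaline and histamine were examined in 2 RNA-seq libraries from layer 5 of the mouse cerebral cortex. The members were the 39 receptor and subunit genes named in a list of these families, matched by symbol to gene identifiers, out of 21474 protein-coding genes. They comprised 13 serotonin, 5 muscarinic, 7 nicotinic, 5 dopamine, 6 adrenergic and 3 histamine receptor genes. Both libraries came from a wild-type male C57Bl6 mouse (strain B6NCrl) aged 8 months, with no treatment named and the antibody field reading Control. Each was made from an area of 8000 square microns cut out by laser capture, entered as 50 cells and amplified with a Smart-seq type protocol. The labels number the areas as biological replicates 1 and 2 but give them the same donor, so the spread below is between 2 areas and may be that within 1 animal. There was 1 group, no contrast of conditions and therefore no test. The captured areas hold cells of several types, and in bulk RNA of this kind a smaller number of cells of a type and less RNA per cell cannot be told apart.

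These receptors read the diffuse modulatory systems of the brain. Axons from brainstem, hypothalamic and basal forebrain nuclei release serotonin, noradrenaline, dopamine, histamine and acetylcholine over wide parts of the cortex, and the receptors on cortical cells set the response. Most are G protein-coupled receptors: those coupled to Gq act through phospholipase C beta, those coupled to Gs raise cyclic AMP and those coupled to Gi/o lower it. The nicotinic receptors and the serotonin receptor Htr3a are ligand-gated cation channels built from several subunits. In layer 5, muscarinic and serotonin receptors are known to control the firing of pyramidal neurons.

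The libraries held 26059117 expected counts in replicate 1 and 28276843 in replicate 2, of which nuclear genes took 86.9% and 86.8%. All 5 excitatory neuron markers and all 5 layer 5 markers examined, among them the transcription factor Fezf2 at 18.6 and 24.5 TPM, reached 1 TPM in both areas. All 5 excitatory markers had higher TPM in replicate 2, at summed levels of 314 against 454 TPM and with the vesicular glutamate transporter Slc17a7 at 56.2 against 112 TPM, but none was beyond 2-fold. Of the layer 5 markers, Rbp4 was beyond 2-fold higher in replicate 2, at 42.1 against 88.2 TPM. TPM (a transcript abundance with the same sum in every library) corrects the level of a gene for the length of its transcripts and for the size of the library. Several markers of cell classes differed between the areas. All 6 microglial markers were beyond 2-fold higher in replicate 1, with summed levels of 239.9 against 71.6 TPM. Endothelial markers were beyond 2-fold higher there for 2 of 4, at summed levels of 92.5 against 45.0 TPM. Mural markers were so for 1 of 5, at 22.9 against 6.88 TPM, but only 2 of the 5 had the mean of at least 1 TPM that a call required. Below that mean, Pdgfrb had 51 counts and 1, Kcnj8 26 and 2, and Acta2 0 in both. Ly6c1 held most of the endothelial sum, at 77.1 against 37.1 TPM, and Pecam1 went the other way, at 1.28 against 2.32 TPM. Oligodendrocyte markers were beyond 2-fold higher in replicate 2 for 3 of 5, at 519 against 840.0 TPM, and precursor markers for 1 of 3, at 9.53 against 28.3 TPM. The precursor difference lay in Olig1, at 8.51 against 27.4 TPM, the only 1 of the 3 with a mean of at least 1 TPM. Pdgfra had 0.71 TPM in both areas and Cspg4 0.31 and 0.12 TPM. Astrocyte markers were level at 107 and 108 TPM. Of 13 GABAergic markers, 10 had a mean of at least 1 TPM, and Chodl had 0 counts. Gad1 and Pvalb were beyond 2-fold higher in replicate 1 and Sst, Npy, Reln and Ndnf in replicate 2. The GABAergic sums of 3969 and 5738 TPM lay mostly in Cck, at 2355 and 2530 TPM, and Sst, at 194 and 2859 TPM. Gad2, at 23.9 and 31.8 TPM, and Slc32a1, at 4.43 and 3.40 TPM, were within 2-fold. Gad1 had 438 and 65.2 TPM, of which transcripts annotated as protein-coding held 77.9 and 14.1 TPM. The part of these cells in the receptor differences below was not tested.

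Receptor genes were expressed at low to moderate levels. Of the 39 members, 21 reached 1 TPM in both areas, 1 (Chrna7) in replicate 1 alone, 11 had counts but stayed under 1 TPM and 6 had no count in either library. The 21 members are 53.8% of the list, near the 51.5% of all protein-coding genes that reached 1 TPM in both areas, so this share says nothing particular about receptors. The median member stood at 1.58 TPM in the first area and 1.06 TPM in the second, beside medians of 1.83 and 1.79 TPM over all protein-coding genes. Together the 39 genes held 10710 and 9691 counts, or 0.0473% and 0.0395% of the nuclear counts. The muscarinic gene Chrm1 led by mean level, followed by the histamine gene Hrh3, Chrm2, the nicotinic gene Chrna4 and Chrm3. In this order of 21 genes by mean TPM, 18 of the 20 pairs of neighbours had ranges between areas that overlapped, so most neighbouring ranks are not separated beyond the spread between areas. Across all 39 genes Spearman's rho between the areas was 0.844, and across the 22 with a mean of at least 1 TPM it was 0.474. Genes are not independent replicates, and the first value rests in part on the genes with few or no counts.

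**Figure D1:**
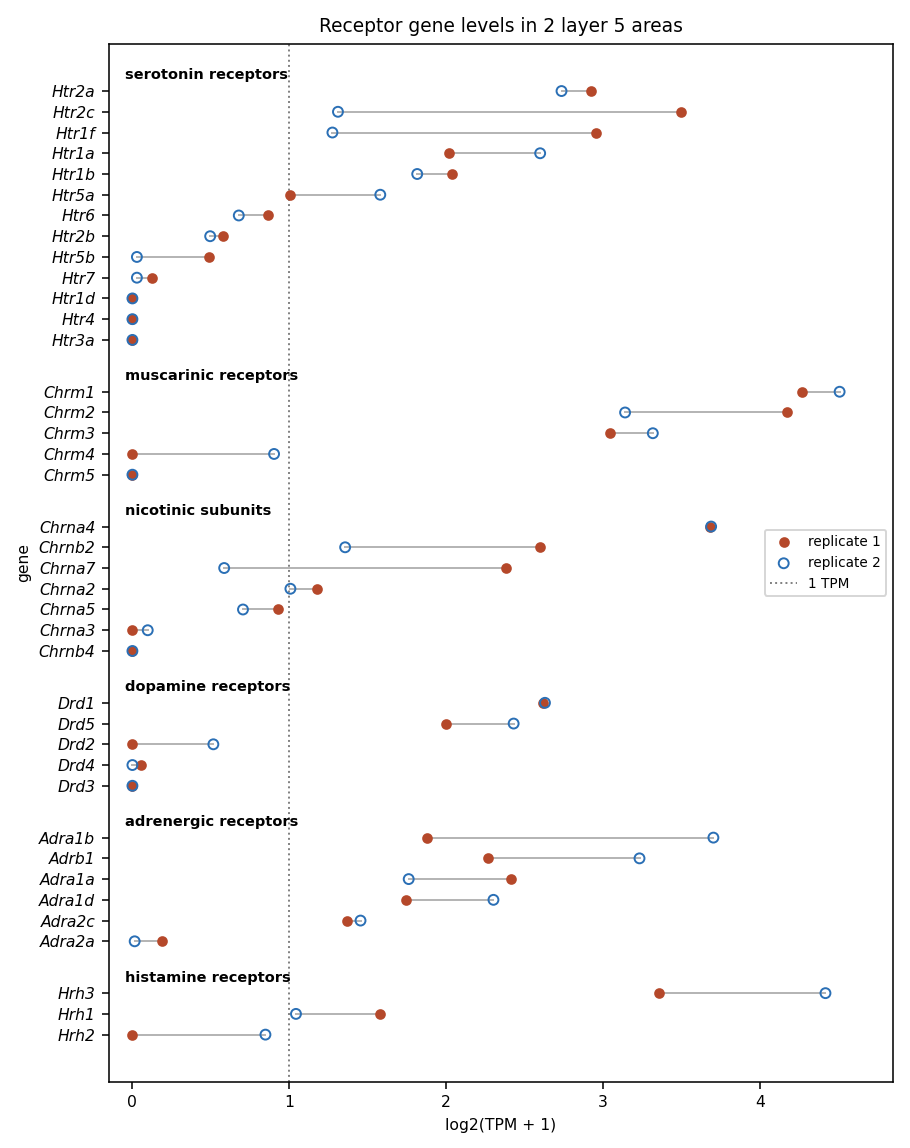
Level of each of the 39 receptor genes as log2(TPM + 1), with filled points for replicate 1, open points for replicate 2 and a line joining them; the dotted line stands at 1 TPM. Chrm1, Hrh3, Chrm2 and Chrna4 lie farthest right by mean level, and Htr2c, Htr1f, Chrna7 and Adra1b have the longest lines.

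The summed levels of 4 receptor families differed between the areas. Summed over a family, serotonin receptors came to 32.6 TPM in replicate 1 against 19.2 TPM in replicate 2, and nicotinic subunits to 23.3 against 15.7 TPM. Adrenergic receptors went the other way with 14.9 and 28.5 TPM, and histamine receptors with 11.2 and 22.2 TPM. These differences lay mostly in the genes that were beyond 2-fold. Without Htr2c and Htr1f the serotonin sum was 15.6 and 16.3 TPM, and without Chrna7 and Chrnb2 the nicotinic sum was 13.97 and 13.61 TPM. Without Hrh3 the histamine sum was 1.98 and 1.86 TPM, while without Adra1b the adrenergic sum was still higher in replicate 2, at 12.2 and 16.5 TPM. These genes were left out after their values were seen. Muscarinic receptors formed the largest family in both areas, at 42.6 and 39.4 TPM or 32.1% and 29.2% of the summed level of all members. Dopamine receptors formed the smallest, at 8.18 and 10.0 TPM. The sum over all 39 genes was 133 and 135 TPM.

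Grouped by coupling, the areas were close in TPM for the Gq and Gi/o groups alone. Gq-coupled receptors summed to 54.2 and 57.7 TPM and Gi/o-coupled receptors to 42.4 and 42.3 TPM, so the Gq sum was the higher in both areas. Gs-coupled receptors summed to 12.9 and 19.4 TPM and ligand-gated subunits to 23.3 and 15.7 TPM. The near equality of the Gi/o sums belongs to TPM: in CPM, counts scaled to the nuclear total with no correction for length, that group had 165 and 134 and the Gq group 199 and 168. Each side of these sums is 1 library.

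**Figure D2:**
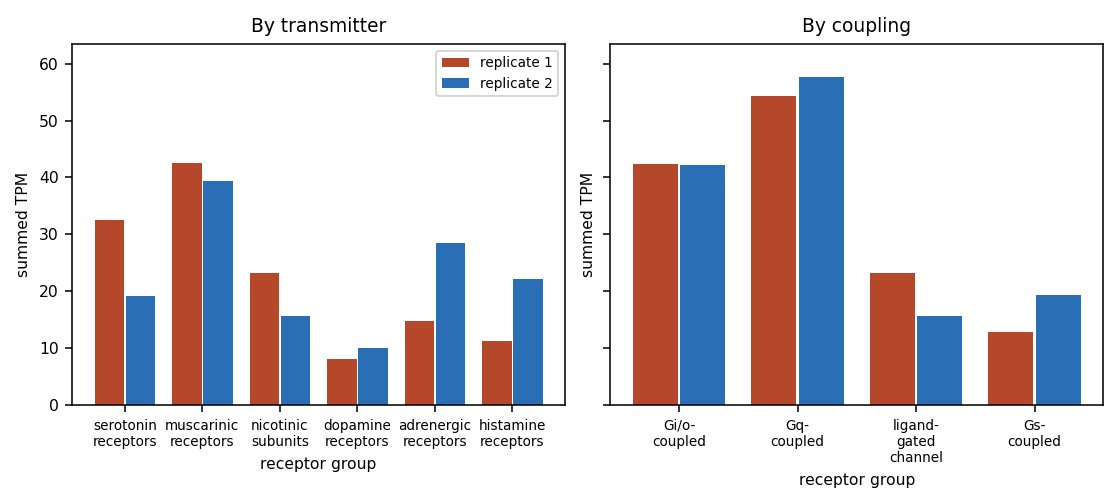
Summed TPM of the receptor genes by transmitter family (left) and by coupling (right), with 1 bar for each area. Serotonin and nicotinic sums are higher in replicate 1 and adrenergic and histamine sums in replicate 2, while the Gi/o bars, at 42.4 and 42.3 TPM, are level.

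The ratio of single genes was taken as log2((TPM + 1) in replicate 1 over (TPM + 1) in replicate 2), which shrinks the ratio of a weakly expressed gene, for the 22 members with a mean of at least 1 TPM. Of these, 7 were beyond 2-fold. Higher in replicate 1 were 5 (22.7%): Htr2c, Chrna7, Htr1f, Chrnb2 and Chrm2. Over all protein-coding genes at that mean, 4.99% were. Higher in replicate 2 were 2 (9.09%), Adra1b and Hrh3, where the share over all such genes was 5.31%. Low genes vary more, and among the protein-coding genes within the members' range of mean TPM (1.14 to 20.0) 14.6% were beyond 2-fold in either direction, against 31.8% of these members. The median log2 ratio of the members was -0.01, beside -0.05 over all protein-coding genes, and 10 members lay above 0 and 12 below. The median absolute log2 ratio was 0.57 for the members and 0.41 for the protein-coding genes in the same range of levels. Nearest to the 2-fold line among the genes beyond it were Chrm2 at 1.03 and Hrh3 at -1.06, and nearest among those within it were Adra1a at 0.65 and Adrb1 at -0.97. With a pseudocount of 0.1 TPM, Adrb1 passed the line at -1.12.

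**Figure D3:**
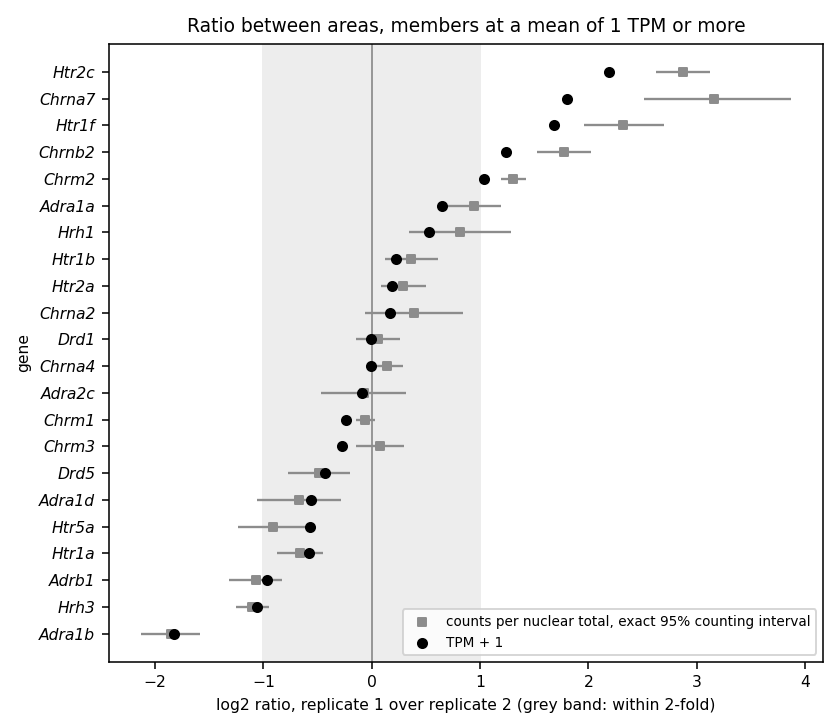
Log2 ratio of replicate 1 over replicate 2 for the 22 members with a mean of at least 1 TPM: black points are ratios of TPM + 1, grey squares are ratios of counts per nuclear total, with bars for the exact 95% Clopper-Pearson interval of counting error. The 5 genes higher in replicate 1 lie right of the grey 2-fold band by TPM and Adra1b and Hrh3 lie left of it.

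Among the serotonin receptors, 6 of 13 reached 1 TPM in both areas. The Gq-coupled receptor Htr2a, the main target of hallucinogens in cortex, had 6.60 and 5.66 TPM, a mean of 6.13 ± 0.66 (SD, n = 2). Its close relative Htr2c, which lies on the X chromosome from 146962513 to 147197277 (ENSMUSG00000041380.9, mm10), had 10.3 TPM and 1025 counts against 1.48 TPM and 152 counts. Htr2c was therefore the most abundant serotonin receptor of replicate 1 and stood under Htr2a in replicate 2, with Htr2a at 0.641 times its level in the first area and 3.82 times in the second. By counts Htr2c was 7.31-fold higher in replicate 1 (exact Clopper-Pearson 95% interval 6.16 to 8.73). These intervals and those that follow cover counting error only, since reads carry no molecular identifiers, and leave out amplification and the difference between areas. The third member of the subfamily, Htr2b, had 0.49 and 0.41 TPM, and its exons share 252 bases with Psmd1 on the opposite strand.

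The Gi/o-coupled Htr1f, bound by some migraine drugs (chromosome 16, 64924729 to 65105854), differed in the same direction as Htr2c, at 6.75 TPM and 350.0 counts against 1.42 TPM and 76 counts. It was 5.00-fold higher by counts (3.89 to 6.49). Htr1a, an inhibitory receptor of pyramidal cells and of serotonin neurons themselves, had 3.05 and 5.06 TPM, a log2 ratio of -0.58. Htr1f stood at 2.21 times Htr1a in replicate 1 and at 0.281 times in replicate 2, so the order of these inhibitory receptors turned between the areas. Htr1b, known as a presynaptic receptor, had 3.10 and 2.52 TPM and overlaps an antisense gene over 852 exon bases. Htr5a, coupled to Gi/o, had 1.01 and 1.99 TPM, the first value barely at the detection level.

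The Gs-coupled serotonin receptors were low or not detected. Htr6 had 0.82 and 0.60 TPM, Htr7 had 6 counts and 1, and Htr4 had none. Htr3a, the only channel subunit among the serotonin members and a marker of a class of upper-layer interneurons, also had 0 counts in both areas, as did its partner Htr3b and the Gi/o-coupled Htr1d. In the same libraries Vip, a neuropeptide of that interneuron class, had 1 and 62 counts. Of the other GABAergic markers, Ndnf had 1 and 649 counts, Reln 458 and 1808 and Calb2 62 and 18. The interneuron classes that these counts come from were not tested. Htr5b had 16 counts and 1, a ratio of 17.4 with an interval of 2.70 to 728. A count of 0 allows up to 0.133 CPM in replicate 1 and 0.122 CPM in replicate 2, taking 3 counts as the limit and counting error only. The genes with 0 counts were therefore not detected at this depth, which does not show that they were absent.

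Acetylcholine acts through muscarinic receptors, of which 3 of 5 were detected in both areas. Chrm1, the main Gq-coupled muscarinic receptor of cortical pyramidal neurons (ENSMUSG00000032773.5, chromosome 19 from 8663789 to 8683587), had 18.3 and 21.8 TPM from 1982 and 2241 counts. Its mean of 20.0 ± 2.47 TPM (SD, n = 2) was higher than that of 79.4% of protein-coding genes. Chrm2, a Gi/o-coupled receptor also found on cholinergic and GABAergic terminals, (chromosome 6, 36388084 to 36528414) had 17.0 TPM from 2043 counts in replicate 1 against 7.82 TPM from 897 counts in replicate 2. It was 2.47-fold higher by counts in replicate 1 (2.28 to 2.68). The ratio of Chrm1 to Chrm2 was 1.07 in the first area and 2.78 in the second, so the 2 subtypes were near level in one area only. The exons of Chrm2 share 142 bases with an antisense noncoding gene that had 164 and 78 counts.

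Chrm3, the second Gq-coupled subtype, had 7.26 and 8.97 TPM. Its level rests largely on a noncoding transcript of 584 bases, which held 43.6% and 60.9% of the gene's TPM from 33.0 and 59 counts. In transcripts annotated as protein-coding, Chrm3 had 4.10 and 3.50 TPM. Chrm4, the Gi/o-coupled receptor best known from the striatum, had 0 and 26 counts. Against a limit of 3 counts in replicate 1 it was 7.99-fold higher in replicate 2, with the 26 counts taken as exact. Chrm5, which is known from dopamine neurons, had 0 counts in both.

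Among the nicotinic subunits, Chrna4 was level between the areas and its main partner Chrnb2 was not. Chrna4 and Chrnb2 together form the most common high-affinity nicotinic receptor of the brain. Chrna4 (chromosome 2, 181018380 to 181043546) had 11.8 and 11.9 TPM from 783 and 770.0 counts, a mean of 11.9 ± 0.06 TPM (SD, n = 2). Chrnb2 (chromosome 3, 89746195 to 89764632) had 5.06 TPM from 576 counts in replicate 1 and 1.56 TPM from 183 counts in replicate 2, 3.41-fold higher by counts in replicate 1 (2.89 to 4.05). The ratio of Chrna4 to Chrnb2 was 2.33 in the first area and 7.63 in the second. The exons of Chrnb2 share 1365 bases with Adar on the opposite strand, which had 1231 and 1349 counts, and without a stated strand setting reads of that stretch cannot be assigned with certainty.

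Chrna7, which forms homomeric channels with high calcium permeability (chromosome 7, 63098692 to 63212569), had 4.22 TPM from 181 counts in replicate 1 and 0.50 TPM from 22 counts in replicate 2. By counts it was 8.92-fold higher (5.72 to 14.6), the largest ratio among the 22 members by counts, while Htr2c was the largest by TPM + 1. The other subunits were low. Chrna2, known in cortex as a marker of layer 5 Martinotti interneurons, had 1.26 and 1.01 TPM, while Sst, a peptide of that interneuron class, had 194 and 2859 TPM. Chrna5, an accessory subunit of receptors that hold Chrna4, had 0.90 and 0.63 TPM. Chrna3 had 0 and 5 counts and Chrnb4 none; together they form the receptor of autonomic ganglia.

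The dopamine receptors were led by the Gs-coupled pair. Drd1 (chromosome 13, 54051183 to 54055705) had 5.15 and 5.19 TPM from 380.0 and 396 counts and, with Chrna4, was the member closest to equal in both areas. Drd5 had 2.99 and 4.39 TPM, and shares 1531 exon bases with an antisense gene that had 21.3 and 49.2 counts. The Gi/o-coupled Drd2, the target of most antipsychotic drugs, had 0 counts in replicate 1 and 14 counts (0.43 TPM) in replicate 2. Drd3 had 0 counts in both areas, and Drd4 had 1 count and 0. In replicate 2 Drd1 was 12.1 times as abundant as Drd2 per transcript length. The Gs-coupled subtypes therefore made up nearly all of the dopamine receptor RNA that was measured.

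Of the members with a mean of at least 1 TPM, the adrenergic receptor Adra1b had the strongest difference towards replicate 2. Adra1b, a Gq-coupled receptor for noradrenaline (ENSMUSG00000050541.10, chromosome 11 from 43774606 to 43901210), had 2.67 TPM from 145 counts in replicate 1 and 12.0 TPM from 567 counts in replicate 2. It was 3.61-fold higher by counts in replicate 2 (2.999 to 4.358). The other Gq-coupled subtypes did not follow one direction: Adra1a had 4.33 and 2.39 TPM and Adra1d 2.35 and 3.93 TPM. Adra1a was at 1.62 times Adra1b in the first area and 0.199 times in the second. Adrb1, the Gs-coupled beta receptor that predominates in cortex, had 3.81 and 8.40 TPM, 2.10-fold higher by counts in replicate 2 (1.77 to 2.50). Adra2c, coupled to Gi/o, had 1.58 and 1.74 TPM, and Adra2a, a Gi/o-coupled receptor known for its action in prefrontal cortex, had 11 counts and 1.

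The difference in Adra1b was divided between 2 annotated start sites that lie 64.9 kb apart on the minus strand of chromosome 11. Transcripts from the upstream start at 43901210 had 0.88 TPM from 31.6 counts in replicate 1 and 7.78 TPM from 288 counts in replicate 2, which was 33.0% of the gene's TPM in the first area and 64.7% in the second. Those from the downstream start at 43836332 had 1.78 TPM from 113 counts and 4.24 TPM from 279 counts. By counts the upstream group was 8.30-fold higher in replicate 2 (5.75 to 12.4) and the downstream group 2.28-fold (1.82 to 2.86). The counts of single transcripts are estimates that divide shared reads, and the downstream start is annotated with a pair of transcripts of equal length and equal values, one coding and one not, so their split is not informative. The larger part of the difference in Adra1b was listed under the upstream start, and both starts were higher in replicate 2.

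The sequences before these starts are shown because the difference in Adra1b falls unequally on them, together with those of Htr2c and Chrnb2, which were higher in the other area. Each is the 250 bases before a RefSeq start on GRCm38.p6, which for Adra1b lies a little upstream of the annotated start used above, written 5′ to 3′ on the gene's strand, and capitals mark matches to the motifs searched. The windows are chr11:43901238-43901487 (minus) for the upstream start of Adra1b, chr11:43836490-43836739 (minus) for the downstream start, chrX:146962263-146962512 (plus) for Htr2c and chr3:89764633-89764882 (minus) for Chrnb2, and none holds an annotated exon.
Adra1b upstream start: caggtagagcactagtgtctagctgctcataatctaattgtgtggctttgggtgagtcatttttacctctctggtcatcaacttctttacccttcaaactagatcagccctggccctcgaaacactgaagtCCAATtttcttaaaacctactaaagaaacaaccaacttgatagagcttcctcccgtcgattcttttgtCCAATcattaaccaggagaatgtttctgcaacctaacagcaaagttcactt
Adra1b downstream start: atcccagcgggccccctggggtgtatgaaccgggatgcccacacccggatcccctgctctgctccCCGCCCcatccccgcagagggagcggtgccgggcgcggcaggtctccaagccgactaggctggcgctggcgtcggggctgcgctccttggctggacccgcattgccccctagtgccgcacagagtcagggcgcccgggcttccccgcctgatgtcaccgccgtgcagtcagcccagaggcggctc
Htr2c: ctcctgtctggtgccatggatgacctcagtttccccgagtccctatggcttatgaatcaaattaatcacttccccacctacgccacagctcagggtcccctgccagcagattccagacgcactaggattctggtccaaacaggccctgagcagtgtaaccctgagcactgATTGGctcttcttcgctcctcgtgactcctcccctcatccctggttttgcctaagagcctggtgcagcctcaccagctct
Chrnb2: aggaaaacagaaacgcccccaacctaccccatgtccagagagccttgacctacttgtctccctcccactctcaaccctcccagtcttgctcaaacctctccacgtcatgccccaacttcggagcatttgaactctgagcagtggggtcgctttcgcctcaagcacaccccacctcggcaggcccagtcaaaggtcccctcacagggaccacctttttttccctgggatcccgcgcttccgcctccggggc
The window of the upstream Adra1b start had 41.6% G and C with a CCAAT box at 2 places, and that of the downstream start 72.8% with a GC box on its other strand, so the starts of this gene differ in base composition. The Htr2c window had 55.6% G and C and a CCAAT box on its other strand, and the Chrnb2 window 59.6% and none of the motifs.

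The promoter windows at hand covered 32 of the 39 members with 41 windows, and none was of Chrm1, the member highest by mean level. These windows were searched on both strands and compared with all 32851 windows. The GC box GGGCGG was in 56.1% of member windows and 32.7% of all windows. The TATA box TATAAA was in 1 member window (2.44%), against 12.4% of all. The CCAAT box CCAAT was in 26.8% against 33.9%, the E box CACGTG in 7.32% against 6.02%, the cyclic AMP response element TGACGTCA in none against 1.55%, and the left part of the RE1 element, TCAGCACC, in 1 window (2.44%) against 1.32%. No motif holds the letters of another, and a gene with several starts enters with several windows. Member windows had a median of 60.8% G and C and 10 CpG, against 52.4% and 6 over all windows. Detected and other members did not separate on this measure, with medians of 60.2% and 61.2%. A match of letters is not evidence that a factor binds.

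Histamine receptors were dominated by Hrh3. Hrh3, a Gi/o-coupled receptor that restrains transmitter release (ENSMUSG00000039059.7, chromosome 2 from 180099465 to 180104488), had 9.25 TPM from 497 counts in replicate 1 and 20.4 TPM from 1157 counts in replicate 2. It was 2.15-fold higher by counts in replicate 2 (1.93 to 2.39) and was the second most abundant member by mean, at 14.8 ± 7.87 TPM (SD, n = 2). The Gq-coupled Hrh1, the target of sedating antihistamines, had 1.98 and 1.06 TPM. Hrh2, coupled to Gs, had 0 counts in replicate 1 and 48 counts (0.80 TPM) in replicate 2. Against the limit of 3 counts it was 14.8-fold higher, with the 48 counts taken as exact. Hrh3 stood at 4.67 times Hrh1 in the first area and 19.2 times in the second.

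Transcript shares were examined for the 9 members with a mean of at least 2 TPM and more than 1 annotated transcript. One transcript held nearly all of Hrh3, at 91.7% and 96.2%, and one held all of Htr1b. Chrm1 was divided between transcripts of 4159 and 6271 bases, the shorter at 53.4% in replicate 1 and 71.2% in replicate 2. Htr2c was divided between 2 coding transcripts, the longer at 76.9% and 58.7%, and both were higher in replicate 1, at 792 against 90.0 counts and 233 against 62.0 counts. The main transcript of Adra1a held 88.9% and 68.2% and the main transcript of Chrna4 57.3% and 55.2%. A noncoding transcript of 712 bases held 25.0% and 33.4% of Chrna4, so its coding level was 8.85 and 7.93 TPM. The main transcript's share thus differed little between areas in Chrna4, and more in Adra1a, Htr2c and Chrm1 as well as in Adra1b.

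**Figure D4:**
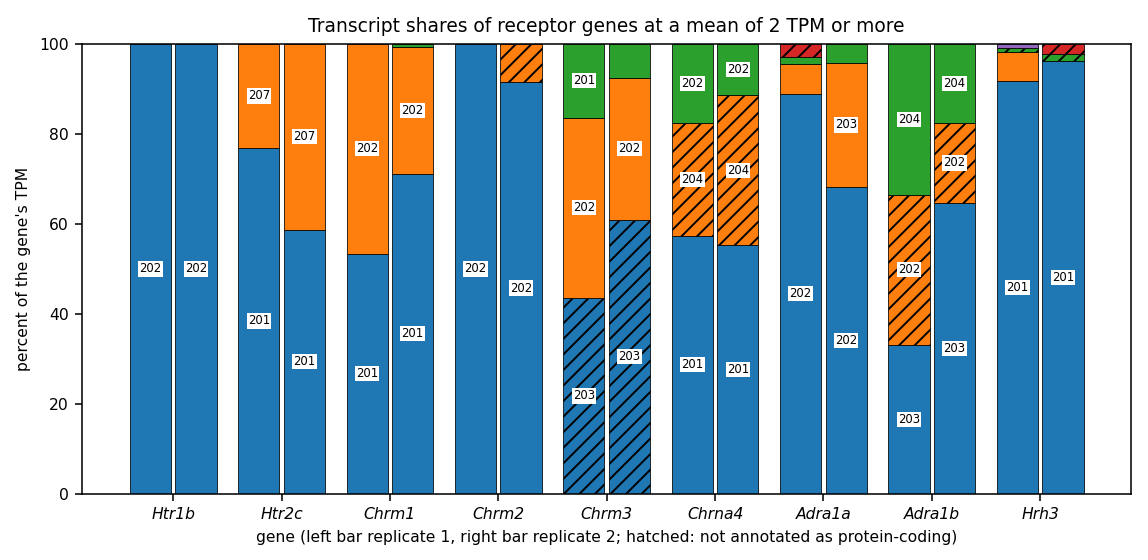
Percent of each gene's TPM held by its annotated transcripts (labelled with the number in the transcript's name) in replicate 1 (left bar) and replicate 2 (right bar); hatched parts are not annotated as protein-coding. The shares of Adra1b, Adra1a, Htr2c and Chrm1 differ between the areas, and the hatched part of Chrm3 takes 43.6% and 60.9%.

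Most genes that make or carry the transmitters had no counts in either area. Of 9 synthesis genes, 6 had 0 counts in both areas, among them Th, Dbh, Chat and Hdc, and none reached 1 TPM in both. Ddc, the decarboxylase shared by dopamine and serotonin synthesis, had 1.55 and 0.57 TPM, Tph2, the brain tryptophan hydroxylase, 0.77 and 1.14 TPM, and Tph1 0.78 and 0.19 TPM. The Ddc level came from 29 and 11 counts, and its transcripts annotated as protein-coding had 0 TPM in both areas. Of 9 transporter genes, 7 had 0 counts in both, including the plasma membrane transporters Slc6a2, Slc6a3 and Slc6a4 for noradrenaline, dopamine and serotonin. Slc18a2, the vesicular monoamine transporter, had 5.78 and 8.06 TPM from 461 and 664 counts. Slc29a4, a low-affinity monoamine transporter, had 1.74 and 0.37 TPM.

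Enzymes that remove the transmitters were present. Hnmt, which methylates histamine, had 62.9 and 61.0 TPM. Ache, acetylcholinesterase, had 17.1 and 35.8 TPM and was beyond 2-fold higher in replicate 2. Maoa went the other way with 6.05 against 1.88 TPM, and Maob had 11.2 and 5.48 TPM. Of the 6 genes, 5 reached 1 TPM in both areas, 1 was called beyond 2-fold higher in each direction, and Bche stayed under 1 TPM.

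Nicotinic chaperones and prototoxin-like modulators were all detected, 8 of 8 in both areas. Ly6e led with 471 and 609 TPM, ahead of Lynx1, which binds nicotinic receptors and lowers their sensitivity, at 53.4 and 57.5 TPM. The assembly chaperones Tmem35a and Ric3 had 35.8 and 48.5 TPM and 27.8 and 23.3 TPM. Ly6h had 29.8 and 40.7 TPM. Lypd6 was beyond 2-fold higher in replicate 2, at 7.38 against 25.1 TPM, and Lypd1 in replicate 1, at 18.5 against 8.56 TPM.

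Of the signal transducers downstream of the receptors, several exceeded in TPM the most abundant receptor gene, Chrm1, in both areas, among them Plcb1, Adcy2 and Arpp19. Plcb1, the phospholipase that Gq activates, had 73.6 and 72.5 TPM and Plcb4 18.7 and 28.5 TPM, while Plcb2 was beyond 2-fold higher in replicate 1 at 2.43 against 0.66 TPM. In transcripts annotated as protein-coding, however, Plcb2 had 0.08 TPM in replicate 1 and 0.27 TPM in replicate 2. Of 9 adenylyl cyclases 7 reached 1 TPM in both areas and none was beyond 2-fold, led by Adcy2 at 29.4 and 32.0 TPM, Adcy1 at 24.5 and 28.6, Adcy9 at 8.35 and 9.75 and Adcy5 at 4.36 and 5.44. Of 7 receptor kinases and arrestins 6 did, and Grk2 was beyond 2-fold higher in replicate 2 at 12.0 against 25.2 TPM, while Arrb1 had 7.16 and 7.90, Grk3 7.03 and 4.38 and Grk6 5.01 and 4.76 TPM. All 11 genes of the cyclic AMP list were detected and none was beyond 2-fold, led by Arpp19 at 606 and 578, Prkar1b at 347 and 450, Prkar1a at 317 and 338 and Prkacb at 67.9 and 81.7 TPM. Ppp1r1b, which encodes the dopamine-regulated phosphoprotein DARPP-32 and is added from sight of its value, stood at 57.6 and 53.6 TPM.

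**Figure D5:**
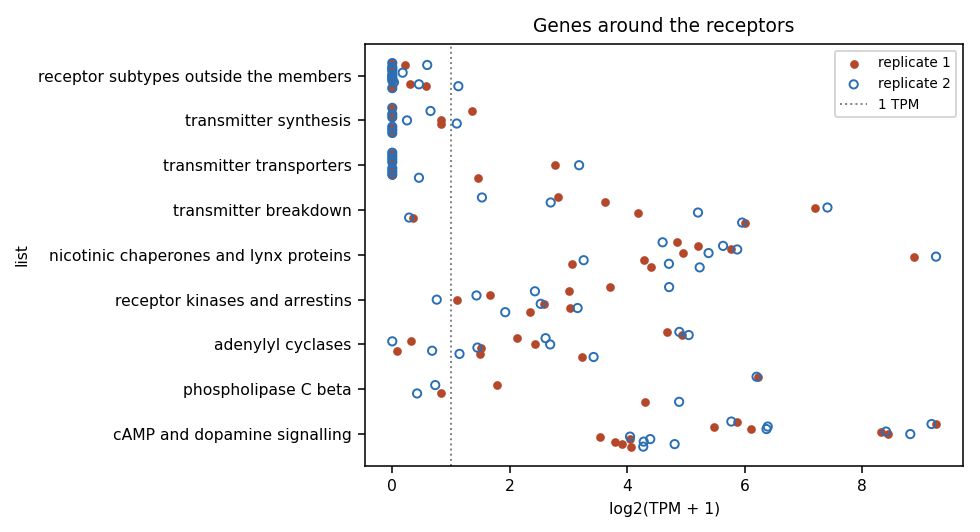
Levels as log2(TPM + 1) of genes around the receptors, 1 row of points for each list, filled for replicate 1 and open for replicate 2, with a dotted line at 1 TPM. Most synthesis and transporter genes stand at 0, with Slc18a2 the farthest right of them at 5.78 and 8.06 TPM, while most breakdown enzymes and transducers and all chaperones lie right of the line.

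Receptor subtypes of the same families outside the member list were at or near 0. Of 14 such genes, 9 had 0 counts in both areas and none reached 1 TPM in both. Among those with counts were the beta receptor Adrb3 at 0.49 and 1.18 TPM, the muscle-type nicotinic subunit Chrna1 at 0.16 and 0.51 TPM and Chrnb1 at 0 and 0.13 TPM.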

How the data were processed

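The data were 2 libraries of 1 group. The deposited tables gave for each gene and transcript an expected count (a fractional estimate of reads), TPM scaled by the authors over all features including mitochondrial genes and spike-ins, and TPM as a posterior mean. The deposited transcript tables gave each transcript's percent of its gene. Assembly mm10 and annotation M4 are stated in the deposited text files; aligner, quantifier and strand setting: not given in the sources used here. Symbols, classes and coordinates came from GENCODE M21 of the same assembly, and all 39 members matched.

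The members and lists were chosen with earlier results of these data known. All members were named, and of each related list the 4 genes with the highest mean TPM and any gene beyond 2-fold at a mean of at least 1 TPM. Other related genes were named after their values were seen, and 2 related genes that this rule names are not reported here.

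Ratios used log2(TPM + 1). Intervals are exact 95% Clopper-Pearson intervals on rounded expected counts over nuclear totals of 22640507 and 24554219. The libraries were no copies of one another: over 13973 genes with 50 or more counts in sum, chi-square divided by its degrees of freedom was 68.7. No p-value was computed. The procedure was tested on simulated counts with 4-fold changes set in 200 genes. Those counts held counting error only, so spread between areas and from amplification was not covered. Promoter windows came from RefSeq (GRCm38.p6). Tools were scipy 1.17.1, pandas 2.3.3, numpy 2.4.6 and matplotlib 3.10.9 under Python 3.11.15. Alternatives were other detection levels, pseudocounts and filters, TPM of nuclear genes alone, CPM, the posterior mean TPM, leaving out each library and, chosen after seeing the data, protein-coding transcripts alone.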

Additional observations from a re-analysis of the deposited data

How the results depend on the processing

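The count of 21 members detected in both areas stayed within 1.5 times under each alternative run. It ranged from 24 with detection at 0.5 TPM to 14 with detection at 2 TPM, which lies at the edge of that bound. The count of 7 members beyond 2-fold also stayed within 1.5 times, except with a mean of at least 5 TPM. There 10 members remained and 4 were beyond 2-fold (Htr2c, Chrm2, Adra1b and Hrh3). That was 40.0% of the remaining members, against 6.10% of all protein-coding genes at that mean. The median TPM of the members was 1.32 and moved to 1.71 with TPM of nuclear genes alone, which rescales every gene upward. Their median log2 ratio moved from -0.01 to 0.15 with CPM and to 0.16 with protein-coding transcripts alone, so its sign is not fixed by these data. No member beyond 2-fold fell within 2-fold with a pseudocount of 0.1 TPM, CPM, posterior mean TPM or protein-coding transcripts alone. Depth limits the members with few counts, and with 1 library on each side nothing separates a difference between areas from one made in amplification. No paired analysis was possible because there is 1 group.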

Other observations

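Of the 31 G protein-coupled members, 15 carry their coding sequence in a single exon in every annotated coding transcript, among them Chrm1, Chrm2, Drd1, Htr1a, Htr1f and Adrb1, while the 8 channel subunits have 6 to 10 coding exons in their longest model. Drd1 and Hrh2 lie 136 kb apart on chromosome 13, with 380.0 and 396 counts for Drd1 and 0 and 48 counts for Hrh2. Chrna5, Chrna3 and Chrnb4 lie within 67.9 kb on chromosome 9, where Chrna5 had 51 and 37 counts, Chrna3 0 and 5 and Chrnb4 none.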
